A study of Mus musculus with 6 samples.

Results

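Genes of heat shock proteins and chaperones were examined in induced T (iT) cells, comparing CD4 single-positive (CD4SP) with CD8 single-positive (CD8SP) cells. Members were the rows whose names begin with Hsp, Dnaja, Dnajb, Dnajc or Cct and continue as chaperone symbols do, that reached 1 TPM or more in 3 or more of the 6 libraries. TPM is a transcript abundance that is corrected for transcript length and scaled to a fixed total per library. Of 84 rows with such names, 64 passed and are the members, out of 10476 genes tested in the series. The 4 genes classed as stress-inducible were Hspa1a, Hspa1b, Dnajb1 and Hsph1, of which 2 passed, and the other 62 members were classed as constitutive.

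The 6 libraries were made from polyadenylated RNA of aliquots of 1000 sorted T cells from spleens of B-NDG mice, 3 of CD4SP and 3 of CD8SP iT cells. B-NDG mice have the NOD background with the Prkdc scid mutation and a disrupted Il2rg gene, and so lack T, B and NK cells of their own. They were irradiated as young adults and given blood progenitors made in culture from mouse pluripotent stem cells of C57BL/6 origin, which the labels give as ESC/iPSC and the study as embryonic stem cells. Both populations carry the same cassette at Rosa26, in which doxycycline switches on Runx1 and Hoxa9 together. It was inserted by homologous recombination, and edited clones were then selected with hygromycin. The labels give neither the number of mice nor whether a library pools several, and the study calls its samples biological replicates without saying that they came from separate animals, so the p-values measure only the spread between these libraries.

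Chaperones bind unfolded or partly folded proteins and help them fold, assemble or be degraded. HSP70 proteins do so in cycles of ATP hydrolysis, which J proteins (the Dnaj genes) start and nucleotide exchange factors end. HSP90 takes over near-native clients, among them kinases of T cell receptor signalling. The TRiC ring (the Cct genes and Tcp1) folds actin and tubulin in the cytosol. BiP and GRP94 (Hspa5 and Hsp90b1) serve the endoplasmic reticulum (ER) and HSP60 with HSP10 (Hspd1 and Hspe1) the mitochondrial matrix. Heat and other stress activate the transcription factor HSF1, which binds heat shock elements in promoters, whereas unfolded protein in the ER acts through XBP1, ATF6 and ATF4.

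These elements can be read in the promoters of 5 members that hold a match. The members called as different below are not among them, although the window of Dnajc10, which is called, also held a heat shock element. Shown are RefSeq windows (GRCm38.p6) from 250 bases before to 50 bases after an annotated transcription start, 5′ to 3′ on the gene's strand. Capitals mark motif letters found on either strand. For Hspa5 (chr2:34771840-34772139, plus strand), Hsp90b1 (chr10:86705395-86705694, minus strand) and Dnajc3 (chr14:118937682-118937981, plus strand) the capitals mark the ER stress element, CCAAT and CCACG with 9 bases between them.

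Hspa5: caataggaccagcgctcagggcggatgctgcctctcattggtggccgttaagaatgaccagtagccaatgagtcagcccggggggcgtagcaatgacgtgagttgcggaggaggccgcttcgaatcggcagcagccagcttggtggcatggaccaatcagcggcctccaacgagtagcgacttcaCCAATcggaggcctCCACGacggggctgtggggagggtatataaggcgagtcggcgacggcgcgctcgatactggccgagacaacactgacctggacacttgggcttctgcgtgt

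Hsp90b1: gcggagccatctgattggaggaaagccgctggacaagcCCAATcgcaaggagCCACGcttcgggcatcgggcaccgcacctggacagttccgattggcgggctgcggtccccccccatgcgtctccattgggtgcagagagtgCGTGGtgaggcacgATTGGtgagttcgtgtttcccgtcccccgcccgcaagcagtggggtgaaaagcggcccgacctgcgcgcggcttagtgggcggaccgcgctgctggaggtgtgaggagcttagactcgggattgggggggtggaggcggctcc

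Dnajc3: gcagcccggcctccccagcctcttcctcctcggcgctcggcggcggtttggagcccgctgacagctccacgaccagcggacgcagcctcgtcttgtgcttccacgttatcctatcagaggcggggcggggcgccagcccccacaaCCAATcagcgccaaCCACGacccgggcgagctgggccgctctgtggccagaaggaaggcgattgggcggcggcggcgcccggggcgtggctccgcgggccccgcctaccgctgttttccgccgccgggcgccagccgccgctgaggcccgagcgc

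For Hsph1 (chr5:149636266-149636565, minus strand) and Hspe1 (chr1:55087898-55088197, plus strand) the capitals mark heat shock elements, units of GAA or its reverse complement TTC that alternate with NN between them.

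Hsph1: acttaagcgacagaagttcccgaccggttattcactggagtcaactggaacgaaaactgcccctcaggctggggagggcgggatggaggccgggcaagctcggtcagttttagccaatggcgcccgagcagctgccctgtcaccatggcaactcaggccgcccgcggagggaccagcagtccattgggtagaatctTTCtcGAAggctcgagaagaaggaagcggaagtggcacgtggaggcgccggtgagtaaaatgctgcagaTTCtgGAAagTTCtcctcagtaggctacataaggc

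Hspe1: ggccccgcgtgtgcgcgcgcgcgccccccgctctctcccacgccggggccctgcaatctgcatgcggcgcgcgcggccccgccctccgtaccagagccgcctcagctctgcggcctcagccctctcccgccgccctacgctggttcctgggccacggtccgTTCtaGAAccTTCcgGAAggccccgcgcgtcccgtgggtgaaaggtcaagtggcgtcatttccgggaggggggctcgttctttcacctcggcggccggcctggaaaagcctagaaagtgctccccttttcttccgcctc

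The ER stress element began 65 bases before the start in Hspa5, 105 before it in Dnajc3, and at 212 and 107 bases in Hsp90b1, the second on the opposite strand. It was present in 0.12% of all 32544 promoter windows, and among the 52 members with a window it was found in these 3 genes alone. A heat shock element of 2 units (GAANNTTC or TTCNNGAA) was present in 15.1% of all windows and in 15 of the 70 windows of members (21.4%). The window of Dnajc10 held such an element 182 bases before the start. One of 3 units was present in 0.608% of all windows. The 3-unit form overlaps the 2-unit form by construction. It was found in 4 members, Hsph1, Hspe1, Hspd1 and Dnajb6. Hspe1 and Hspd1 lie head to head on chromosome 1 and their windows cover much of the same DNA, so their matches are the same letters. The windows of Hspa1a and Hspa1b each held a 2-unit element 104 bases before the start, and those of Dnajb1 held none of the 3 motifs. A match describes letters only, not binding.

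The libraries were as labelled. The summed TPM of Cd4, Zbtb7b and Cd40lg was 359 to 410 in CD4SP and at most 3.29 in CD8SP libraries, and that of Cd8a, Cd8b1 and Eomes was 34.1 to 49.6 and 3286 to 3617. TPM keeps no sequencing depth, so no counting interval or detection floor could be given. The TPM share of ribosomal protein transcripts was 25.8% ± 2.58 (SD, n = 3) among CD4SP and 33.6% ± 2.06 (SD, n = 3) among CD8SP libraries, and the median difference over all tested genes was 0.28 on the log2 scale in favour of CD4SP. Differences of members are therefore read against this median. CD4SP replicate 2 was the lowest CD4SP library in 35 of the 47 members with a mean of at least 10 TPM (74.5%), against 61.8% of all such genes. Summed myeloid markers were 17.1 to 31.3 TPM in CD4SP libraries, against 3.64 to 9.09 in CD8SP, of which only Lyz2 passed the filter, called higher in CD4SP (1.68, adjusted p = 0.00872), and S100a8 and S100a9 were listed at 0 throughout. Summed B cell markers were 15.9 to 22.3 and 21.3 to 24.5 TPM, with Ms4a1 and Pax5 listed at 0. Summed NK cell markers were 8.18 to 11.4 and 10.1 to 19.8 TPM, with Ncr1 listed at 0, Tyrobp overlapping, and Klrb1c called higher in CD8SP (0.682 to 1.82 and 5.22 to 9.14 TPM, adjusted p = 0.00426). The part of these markers in the results was not tested. In such bulk samples, fewer cells of a type and less RNA per cell cannot be told apart.

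The members together held a TPM share of 0.729% ± 0.089 (SD, n = 3) among CD4SP and 0.784% ± 0.0405 (SD, n = 3) among CD8SP libraries, and the libraries of the populations overlapped. Of the 64 members, 56 reached 1 TPM in all 6 libraries, 16 had a mean above 100 TPM and 17 a mean below 10 TPM. Hspa8, the constitutive HSP70 of the cytosol, was the most abundant, followed by Hsp90ab1, the constitutive HSP90. Dnajc15, Cct2 and Cct5 came next, and 6 of the 10 most abundant members were subunits of TRiC. Hspa8 and Hsp90ab1 together gave 0.316 ± 0.0186 (SD, n = 3) of the members' summed TPM in CD4SP libraries, against 0.363 ± 0.0177 (SD, n = 3) in CD8SP. The 12 names listed at 0 in every library included the small heat shock proteins Hspb1, which is widely expressed and stress-inducible, and Hspb2, Hspb3 and Hspb7, best known from muscle.

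**Figure D1:**
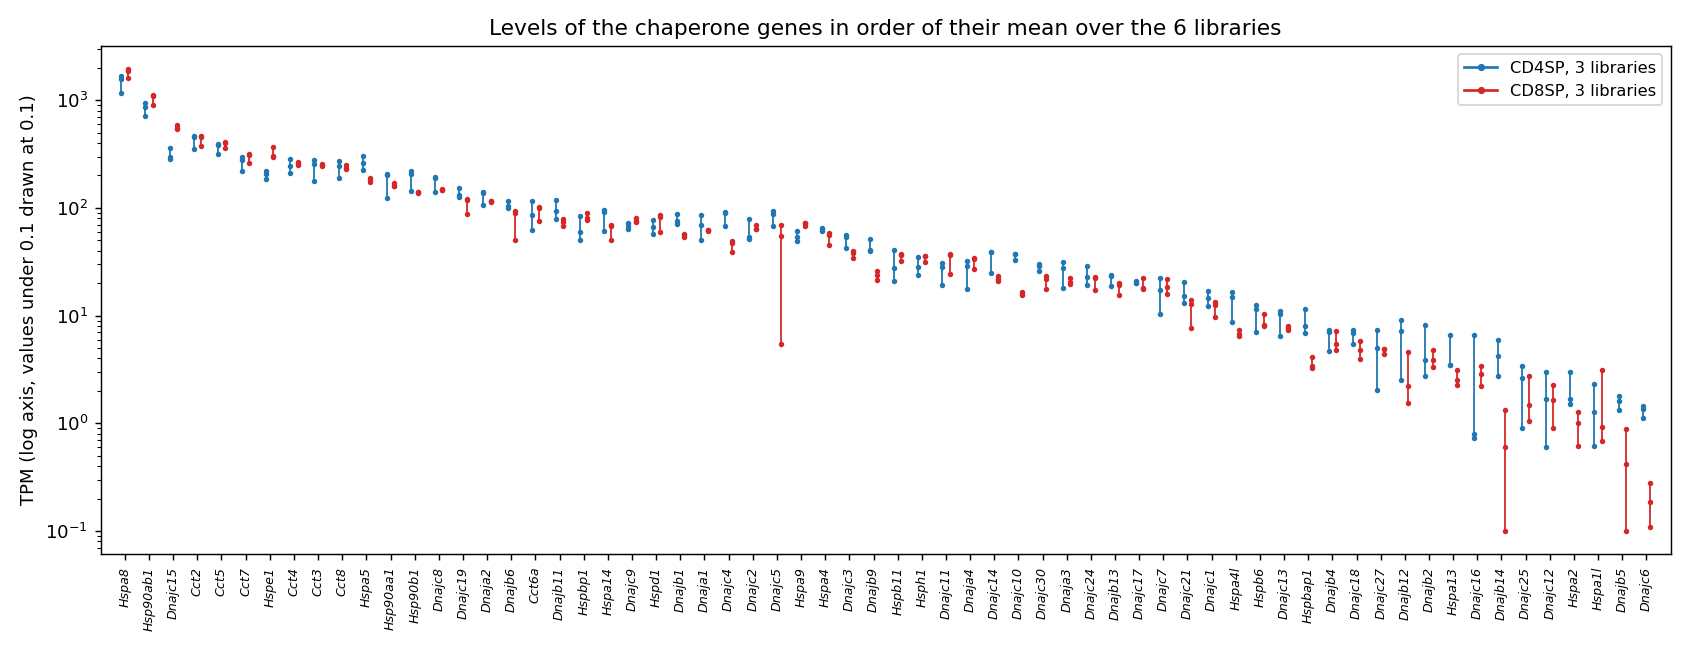
TPM of the 64 members on a log axis, in order of their mean over the 6 libraries, with each library as a point and a line from the lowest to the highest library of a population (values under 0.1 are drawn at 0.1). Hspa8 and Hsp90ab1 stand above the rest, Dnajc15 and Hspe1 are higher in CD8SP, and Dnajc5 has 1 CD8SP library at 5.48 TPM.

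To ask which chaperones differ between the populations, each gene was fitted with limma on log2(TPM + 1), and p-values were adjusted by Benjamini-Hochberg over all tested genes. A gene was called at an adjusted p under 0.05 and a difference over 2-fold. Of the 64 members, 3 were called higher in CD4SP and 0 in CD8SP, while 7.92% and 1.8% of all tested genes were called in these directions. At an unadjusted p under 0.05 the members numbered 15 (23.4%) and 3 (4.69%), against 31.4% and 5.69% of all tested genes. The 3 called were Dnajb14, Dnajc10 and Hspbap1. By adjusted p alone, 9 members (14.1%) were higher in CD4SP and 2 (3.12%) in CD8SP, against 17.6% and 3.23% of all tested genes. Among the 9, Dnajc6 passed the filter on low values only through CD4SP and so had to differ in that direction. All 3 CD4SP libraries lay above all CD8SP libraries in 20 members (31.2%), against 36.6% of all genes, and the reverse held in 4 members, against 6.61% of all genes. As a set, then, the members were called at no more than the background share. Their median difference was 0.18, which is 0.11 below that of all tested genes, and 24 of 64 lay above the median of all genes. The members are described by role, in classes that were drawn up after their values had been seen.

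**Figure D2:**
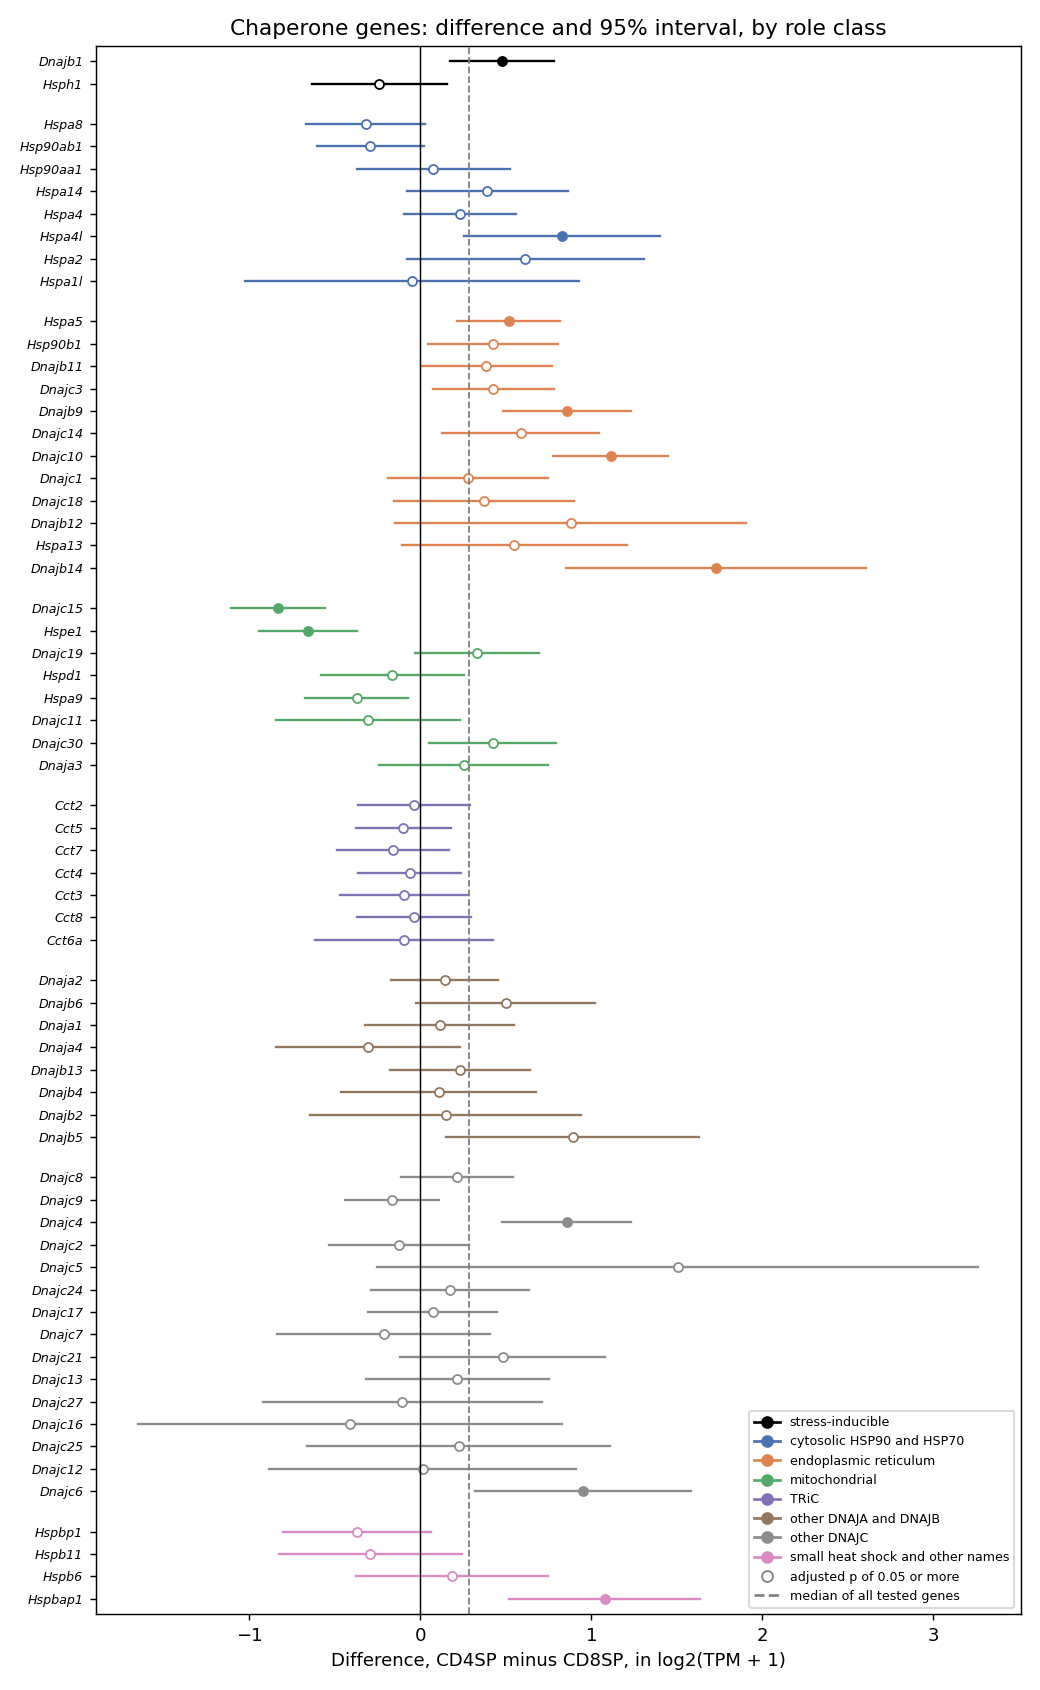
Difference between CD4SP and CD8SP iT cells in log2(TPM + 1) with its 95% interval for each member, ordered within a class by mean TPM; filled points have an adjusted p under 0.05, and the dashed line is the median of all tested genes. All 12 members of the ER class lie to the right of 0, all 7 Cct members slightly to the left, and Dnajc15 and Hspe1 furthest left.

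Of the stress-inducible genes, the pair encoding HSP70 itself was at or near 0. Hspa1a was listed at 0 in all CD4SP libraries and at 0.073, 0.115 and 0.197 TPM in CD8SP libraries. Hspa1b was listed at 0.401, 1.40 and 0 TPM in the CD4SP libraries and 0.131, 0 and 0.139 TPM in the CD8SP ones. Both lay below the filter, as did their sum, so neither was tested. They are 99.2% identical over 2201 nucleotides, and how the authors' counting shared reads between such copies is not given in the sources used here, so their separate values are uncertain.

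Dnajb1 (chr8:83608193-83612653, plus strand) encodes the J protein that works with inducible HSP70. It measured 88.4, 70.5 and 76.0 TPM in the CD4SP libraries and 56.1, 56.8 and 54.2 TPM in the CD8SP ones. Each CD4SP library was above each CD8SP library, and the CD8SP values were the more alike. The difference was 0.48 ± 0.13 (SE) on the log2 scale, 1.39-fold, with an adjusted p of 0.0375 by limma. It passed that threshold but not the 2-fold limit, and it lay 0.19 above the median of all genes. It passed in 5 of 16 refitted alternatives: median-of-ratios rescaling gave 0.18 (adjusted p = 0.303), and leaving out any library but CD4SP replicate 2 gave an adjusted p of 0.079 to 0.127.

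Hsph1 (chr5:149614287-149636376, minus strand) encodes an HSP110 exchange factor of HSP70. Its window shown above holds a 3-unit heat shock element that begins 15 bases after the annotated start, and a 2-unit element 54 bases before it. It measured 28.3, 23.9 and 35.0 TPM in the CD4SP libraries and 35.4, 35.5 and 31.6 TPM in the CD8SP ones. The populations overlapped, with CD4SP replicate 3 among the CD8SP values. The difference was -0.24 ± 0.17 (SE), with an adjusted p of 0.345. Under median-of-ratios rescaling it was -0.54 (adjusted p = 0.0269), lower in CD4SP. Dnajb1 and Hsph1 thus had differences of opposite sign, and the summed stress-inducible genes reached 117, 95.8 and 111 TPM in the CD4SP libraries and 91.7, 92.4 and 86.1 TPM in the CD8SP ones.

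Among the constitutive members, the cytosolic HSP70 and HSP90 class held the most abundant transcripts. Hspa8 (chr9:40800984-40810087, plus strand) measured 1675, 1162 and 1561 TPM in the CD4SP libraries and 1874, 1946 and 1619 TPM in the CD8SP ones. CD4SP replicate 2 was the lowest of the 6, and CD4SP replicate 1 lay above CD8SP replicate 3. Hsp90ab1 measured 951, 717 and 867 TPM in the CD4SP libraries and 1085, 1106 and 905 TPM in the CD8SP ones, with CD4SP replicate 1 above CD8SP replicate 3. The differences were -0.32 ± 0.15 (SE, adjusted p = 0.166) for Hspa8 and -0.29 ± 0.14 (SE, adjusted p = 0.16) for Hsp90ab1, and relative to the median of all genes -0.60 and -0.58. With median-of-ratios rescaling both passed in favour of CD8SP, at -0.63 (adjusted p = 0.01) and -0.60 (adjusted p = 0.00714), as they did with ribosomal protein genes removed (adjusted p = 0.0431 and 0.0325), but not under quantile normalization (-0.25, adjusted p = 0.314, and -0.30, adjusted p = 0.141).

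Hsp90aa1, the HSP90 gene that stress induces further, measured 204, 123 and 204 TPM in the CD4SP libraries and 160, 161 and 169 TPM in the CD8SP ones. The CD8SP values lay between those of CD4SP replicate 2 and the other CD4SP libraries, and the difference was 0.08 ± 0.20 (SE, adjusted p = 0.803). Without CD4SP replicate 2 it was 0.32 (adjusted p = 0.034), which was the 1 of 16 refitted alternatives in which it passed. The sign turned in 5 of the 16, for example to -0.23 (adjusted p = 0.355) under median-of-ratios rescaling. Hspa8 and Hsp90aa1 have processed pseudogenes at 95% identity or more that could share their reads, the closest at 99.8% over 916 nucleotides for Hspa8 and 99.5% over 2255 for Hsp90aa1. In the class of 8, 1 member passed the adjusted p (12.5%, against 17.6% of all tested genes in its direction). The member was Hspa4l, an HSP110 relative, at 16.4, 8.81 and 14.8 TPM in the CD4SP libraries and 7.38, 6.43 and 6.79 TPM in the CD8SP ones (0.83 ± 0.25, SE, adjusted p = 0.049). It passed in 3 of 16 refitted alternatives and missed the threshold when any library but CD4SP replicate 2 was left out (adjusted p = 0.115 to 0.14). Without CD4SP replicate 2 it was over 2-fold (1.08, adjusted p = 0.00631).

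The 12 members of the ER class were all at a positive difference, as were 7840 of 10476 tested genes, and 11 of them lay above the median of all genes. The class was drawn up after the values were seen, so its counts and sums depend on which genes were placed in it. Dnajc16, placed among the other DNAJC members, would have been negative (-0.41). Under median-of-ratios rescaling 11 were positive and under quantile normalization 10. The median of the class was 0.53 against 0.28 for all tested genes. The CD4SP libraries lay above the CD8SP libraries in 9 of 12 (36.6% of all tested genes), and 4 of 12 passed the adjusted p, all higher in CD4SP (17.6% of all tested genes). The summed class measured 782, 619 and 853 TPM in the CD4SP libraries and 503, 535 and 511 TPM in the CD8SP ones, without overlap. The number past the adjusted p was 8 without CD4SP replicate 2, 2 without CD4SP replicate 3 and 2 under quantile normalization.

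Hspa5 encodes BiP, the HSP70 of the ER. It measured 263, 223 and 301 TPM in the CD4SP libraries and 182, 188 and 176 TPM in the CD8SP ones. All CD4SP libraries were higher, with the widest spread among themselves. The difference was 0.52 ± 0.13 (SE, adjusted p = 0.0282), 0.23 above the median of all genes, and it became 0.21 (adjusted p = 0.179) under median-of-ratios rescaling. It passed in 5 of 16 refitted alternatives, and it missed the threshold when any library but CD4SP replicate 2 was left out (adjusted p = 0.0719 to 0.097). The ratio of Hspa8 to Hspa5 is untouched by rescaling of whole libraries. It was 6.36, 5.22 and 5.18 in CD4SP and 10.3, 10.4 and 9.21 in CD8SP libraries, so the HSP70 of the cytosol outweighed that of the ER more in each CD8SP library.

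Hsp90b1, the HSP90 of the ER, measured 208, 144 and 220 TPM in the CD4SP libraries and 139, 139 and 140 TPM in the CD8SP ones. CD4SP replicate 2 lay just above the CD8SP values, and the difference of 0.43 ± 0.17 (SE) had an adjusted p of 0.101. Without that library the difference was 0.61 (adjusted p = 0.00527). It fell to 0.12 (adjusted p = 0.548) under median-of-ratios rescaling and 0.22 (adjusted p = 0.325) under quantile normalization. Dnajc3, whose product P58IPK is a co-chaperone of BiP, was at 55.8, 42.4 and 53.4 TPM against 34.1, 39.4 and 38.0 TPM (0.43 ± 0.15, SE, adjusted p = 0.0842). Its difference was 0.54 (adjusted p = 0.0191) without CD4SP replicate 2 and 0.13 (adjusted p = 0.524) under median-of-ratios rescaling. These 2 genes and Hspa5 are the members with an ER stress element in the windows shown, and all 3 had CD4SP values above CD8SP values, as did 5 ER members whose windows lack the element.

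The J proteins of the ER included the larger differences. Dnajc10 (chr2:80315466-80354043, plus strand) encodes ERdj5, a disulfide reductase that acts with BiP in degradation. It measured 37.2, 33.0 and 37.1 TPM in the CD4SP libraries and 15.9, 15.6 and 16.5 TPM in the CD8SP ones. The populations were far apart relative to their spread, and the difference was 1.11 ± 0.15 (SE), 2.16-fold, with an adjusted p of 0.00169, and 0.83 above the median of all genes. Its adjusted p was under 0.05 in all 16 alternatives that were refitted, but the fold dropped under 2 in the 3 other scalings, where the difference was 0.79 to 0.97.

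Dnajb9, encoding ERdj4, measured 40.6, 40.0 and 51.3 TPM in the CD4SP libraries and 21.2, 23.7 and 26.2 TPM in the CD8SP ones. The populations did not overlap, and the difference was 0.86 ± 0.16 (SE, adjusted p = 0.00868), 1.81-fold and 0.57 above the median of all genes, and passed in 15 of 16 refitted alternatives. Dnajb14 (chr3:137867675-137916557, plus strand), an ER membrane J protein, measured 4.20, 2.76 and 5.96 TPM in the CD4SP libraries and 0.601, 1.32 and 0 TPM in the CD8SP ones. Its difference of 1.73 ± 0.38 (SE, adjusted p = 0.016) was the largest among the members by limma, but it rests on low values and on a CD8SP library listed at 0. Without CD4SP replicate 3 its adjusted p was 0.0612, and with a pseudocount of 0.1 the difference was 3.18 (adjusted p = 0.0509). The other 6 members of the class had differences from 0.28 (Dnajc1) to 0.88 (Dnajb12), none past the adjusted p.

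**Figure D3:**
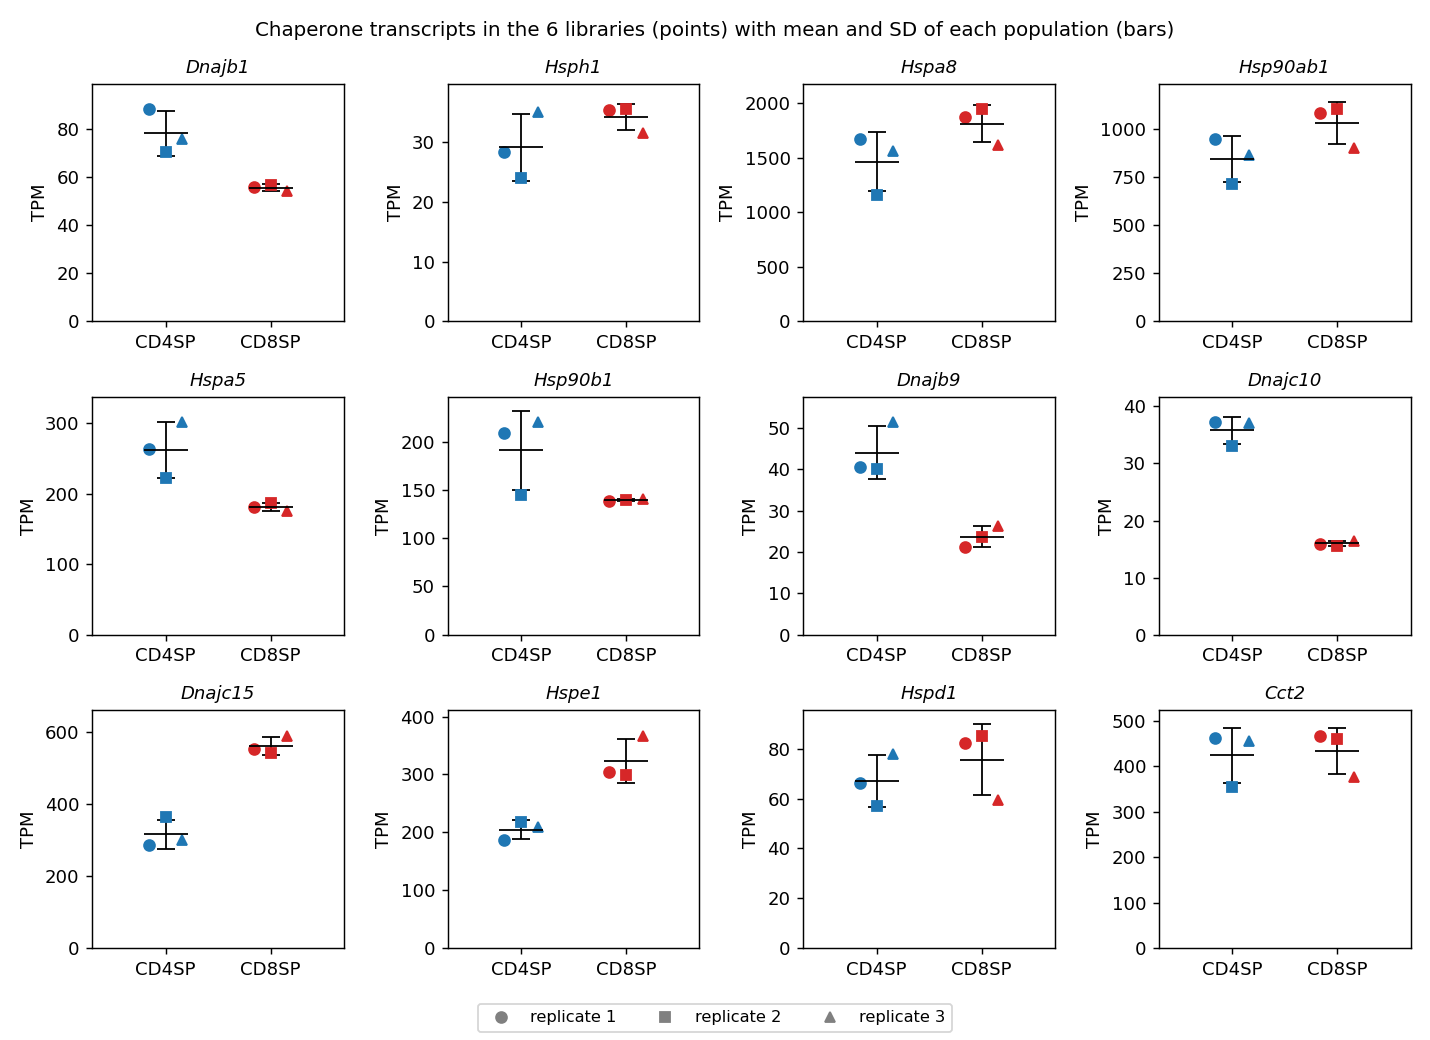
TPM of 12 members in each library (points, shaped by replicate) with the mean and SD of each population (bars), each axis starting at 0. The CD4SP and CD8SP libraries separate for Dnajb1, Hspa5, Dnajb9, Dnajc10, Dnajc15 and Hspe1, and mix for Hsph1, Hspa8, Hsp90ab1, Hspd1 and Cct2.

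In the mitochondrial class 2 of 8 members passed the adjusted p, both higher in CD8SP (25%, against 3.23% of all tested genes). This share also depends on which genes were placed in the class after the values were seen. Dnajc4, placed among the other DNAJC members, passed in the other direction (0.86, adjusted p = 0.00875 by limma). Dnajc15 (chr14:77820681-77875125, minus strand) encodes MCJ, a J protein of the inner membrane that restrains complex I in CD8 T cells. It measured 287, 363 and 300 TPM in the CD4SP libraries and 554, 543 and 590 TPM in the CD8SP ones. No CD4SP library came near the CD8SP values, and the difference was -0.83 ± 0.12 (SE), 1.78-fold, with an adjusted p of 0.00264, or -1.12 relative to the median of all genes. It was the third most abundant member, and its adjusted p stayed under 0.05 in all 16 alternatives that were refitted. Under median-of-ratios rescaling its difference was -1.14 (adjusted p = 0.00384), over 2-fold and so a call. Set against Dnajc19, a J protein of the import motor, its ratio was 2.18, 2.36 and 2.38 in CD4SP and 4.67, 4.46 and 6.69 in CD8SP libraries. Dnajc19 itself was at 131, 154 and 126 TPM against 119, 122 and 88.3 TPM, which widens this ratio (0.33, adjusted p = 0.166). Each CD4SP library was above each CD8SP library for Dnajc19, and likewise for Dnajc30 (0.42, adjusted p = 0.0998).

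Hspe1 (HSP10) measured 186, 218 and 209 TPM in the CD4SP libraries and 304, 299 and 367 TPM in the CD8SP ones. All CD8SP libraries were higher, and the difference was -0.66 ± 0.13 (SE, adjusted p = 0.00869), 1.58-fold, past the adjusted p in all 16 refitted alternatives. Relative to the median of all genes it was -0.94. Its partner Hspd1 (HSP60), which shares the promoter region shown above, measured 66.5, 57.0 and 77.8 TPM in the CD4SP libraries and 82.3, 85.3 and 59.4 TPM in the CD8SP ones. These overlapped, and the difference was -0.16 ± 0.18 (SE, adjusted p = 0.544). The first exons of Hspe1 and Hspd1 overlap by 112 nucleotides on opposite strands, and whether strand was used in counting is not given in the sources used here. Hspd1 also has a processed pseudogene at 99% identity over 1722 nucleotides, and 208 nucleotides of Hspe1 are 99% identical to another annotated gene. The ratio of Hspe1 to Hspd1 was 2.80, 3.83 and 2.68 in CD4SP and 3.69, 3.51 and 6.18 in CD8SP libraries, which overlap.

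Hspa9, the HSP70 of the matrix, measured 54.0, 49.4 and 60.9 TPM in the CD4SP libraries and 68.0, 72.5 and 72.2 TPM in the CD8SP ones. The CD8SP values were all higher, but the difference of -0.37 ± 0.13 (SE) had an adjusted p of 0.0791. Under median-of-ratios rescaling it was -0.67 (adjusted p = 0.00558). The class had a median of -0.24 and 5 of its 8 members were at a negative difference. Its summed TPM was 813, 907 and 859 in CD4SP and 1209, 1199 and 1240 in CD8SP libraries, a separation made mainly by Dnajc15 and Hspe1.

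**Figure D4:**
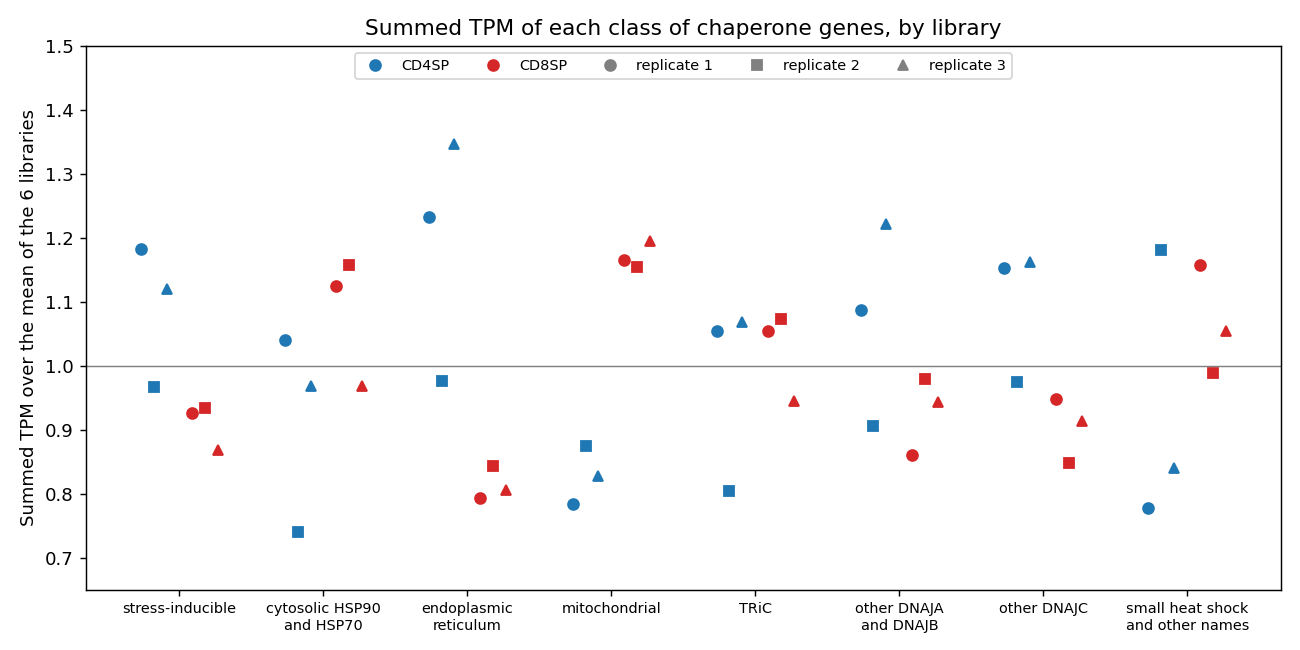
Summed TPM of each class in each library, divided by the class mean over the 6 libraries (y axis from 0.65), coloured by population and shaped by replicate. The ER class is higher in each CD4SP library, the mitochondrial class in each CD8SP library, and the TRiC libraries mix.

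The Cct subunits of TRiC had differences near 0. All 7 Cct members had CD4SP and CD8SP libraries that overlapped, 0 of 7 passed the adjusted p by limma (0 also at an unadjusted p under 0.05, against 31.4% and 5.69% of all tested genes in the CD4SP and CD8SP directions), and the differences ran from -0.16 (Cct7) to -0.04 (Cct2 and Cct8), or -0.44 to -0.32 relative to the median of all genes. Cct2, the most abundant subunit, measured 462, 354 and 455 TPM in the CD4SP libraries and 467, 460 and 375 TPM in the CD8SP ones, with a 95% interval of the difference from -0.37 to 0.29. Cct5 was at 393, 315 and 382 TPM against 397, 405 and 362 TPM. Cct3, Cct4 and Cct7 had means of 236 to 266 TPM in CD4SP, and of 249 to 297 TPM in CD8SP libraries. Cct8 averaged 236 and 240 TPM, and Cct6a, the least abundant, 88.0 and 92.2 TPM. CD4SP replicate 2 was the lowest CD4SP library for each of the 7, and without it the median difference was 0.09 rather than -0.10. Under median-of-ratios rescaling the class median was -0.40 and 3 of 7 passed in favour of CD8SP, while 0 of 7 passed under quantile normalization (median -0.25) or with ribosomal protein genes removed (-0.255). Cct6b, a testis form of the zeta subunit, was listed at 1.35 TPM in CD4SP replicate 2 and at 0 elsewhere.

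Of the other 8 members of the DNAJA and DNAJB families, partners of cytosolic HSP70, 0 passed the adjusted p by limma, against 17.6% and 3.23% of all tested genes in the CD4SP and CD8SP directions. At an unadjusted p under 0.05 there was 1 (12.5%, against 31.4% of all tested genes), Dnajb5, whose direction the filter fixed. Dnaja2, the most abundant, measured 137, 107 and 140 TPM in the CD4SP libraries and 116, 114 and 115 TPM in the CD8SP ones, which overlapped (0.14 ± 0.14, SE, adjusted p = 0.475). Dnajb5 measured 1.34, 1.61 and 1.80 TPM in the CD4SP libraries and 0.42, 0.89 and 0 TPM in the CD8SP ones (adjusted p = 0.084). It passed the filter only through CD4SP, as did Dnajc6. Dnajb13, a J protein of cilia, overlaps Ucp2 by 305 nucleotides on the other strand, and Ucp2 averaged 664 TPM, so its 15.7 to 23.6 TPM are uncertain.

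Of 15 other DNAJC members, 2 passed, both higher in CD4SP (13.3%, against 17.6% of all tested genes), and for Dnajc6 the filter on low values fixed that direction. Dnajc4 measured 89.4, 90.7 and 68.4 TPM in the CD4SP libraries and 47.3, 49.4 and 38.8 TPM in the CD8SP ones (0.86 ± 0.16, SE, adjusted p = 0.00875), and it passed in 15 of 16 refitted alternatives. Dnajc6, encoding auxilin of clathrin uncoating, was at 1.13, 1.43 and 1.37 TPM against 0.187, 0.109 and 0.282 TPM (0.95 ± 0.28, SE, adjusted p = 0.0426). It missed the threshold when any library but CD4SP replicate 2 was left out (adjusted p = 0.0663 to 0.151). Dnajc8, a splicing-associated J protein and the most abundant of the group, was at 192, 140 and 189 TPM against 148, 149 and 148 TPM, with overlap (adjusted p = 0.311). Dnajc16 measured 6.60, 0.726 and 0.795 TPM in the CD4SP libraries and 2.85, 3.43 and 2.24 TPM in the CD8SP ones (-0.41, adjusted p = 0.612), and without CD4SP replicate 1 it was called higher in CD8SP (-1.11, adjusted p = 0.046). Dnajc5, the cysteine string protein, measured 93.9, 68.5 and 88.2 TPM in the CD4SP libraries and 69.6, 5.48 and 55.3 TPM in the CD8SP ones. Its difference was 2.84-fold (adjusted p = 0.192), and without CD8SP replicate 2 it was 0.41 on the log2 scale (adjusted p = 0.221).

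The last 4 members share a name more than a function. Hspbap1 (chr16:35770375-35828477, plus strand), named for binding HSPB1, measured 11.6, 6.97 and 8.02 TPM in the CD4SP libraries and 4.14, 3.37 and 3.30 TPM in the CD8SP ones. The populations did not overlap, and the difference was 1.08 ± 0.24 (SE, adjusted p = 0.0177), 2.11-fold. Its difference was under 2-fold under the 3 other scalings (0.70 to 0.99), and its adjusted p missed the threshold under quantile normalization (0.0647) and when CD4SP replicate 1 or any 1 CD8SP library was left out (adjusted p = 0.0502 to 0.0709), and 430 of its exonic nucleotides overlap an antisense gene. Hspbp1, an exchange factor of HSP70, was at 50.5, 83.2 and 59.4 TPM against 89.2, 76.5 and 79.9 TPM, with CD4SP replicate 2 the highest CD4SP library (-0.37, adjusted p = 0.191). Without that library its difference was -0.57 (adjusted p = 0.0196), and it passed in 2 of 16 refitted alternatives.

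**Figure D5:**
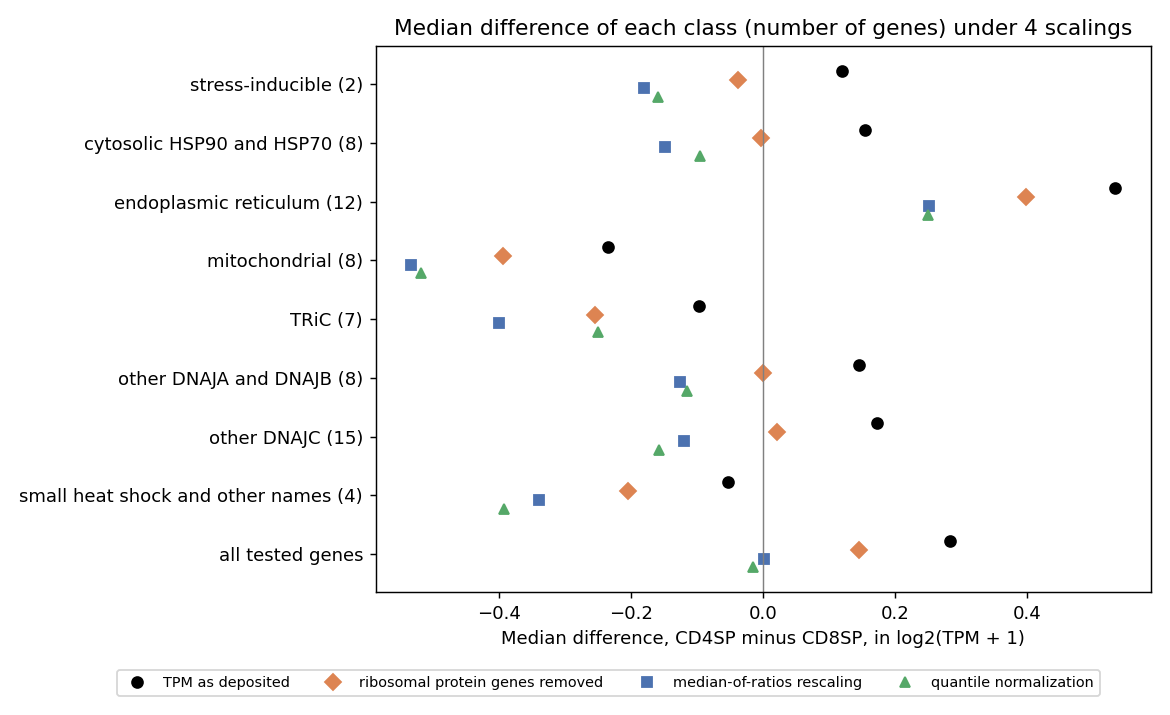
Median difference of each class (CD4SP minus CD8SP, log2 scale) with TPM as deposited, after removing ribosomal protein genes, after median-of-ratios rescaling and after quantile normalization, with all tested genes in the bottom line. The ER class stays right of 0 (0.25 to 0.53) and the mitochondrial and TRiC classes left of 0, while the cytosolic HSP90 and HSP70 class, the stress-inducible class and the other DNAJ classes move from right of 0 to left of it.

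Genes that work with the members, and immediate-early genes, were counted in 6 lists. Of the 4 tested HSF regulators, 1 passed (25%, against 17.6% of all tested genes). Hsf1, the main stress regulator, measured 45.4, 31.1 and 34.5 TPM in the CD4SP libraries and 35.2, 33.3 and 26.2 TPM in the CD8SP ones, which overlapped (0.21 ± 0.19, SE, adjusted p = 0.445). Hsf2 averaged 3.38 and 1.90 TPM, with overlap (adjusted p = 0.226). Hsbp1, whose product binds HSF1, averaged 113 ± 12.8 TPM against 68.5 ± 3.28 TPM (SD, n = 3), without overlap (0.71 ± 0.13, SE, adjusted p = 0.00744).

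Of 24 cytosolic co-chaperones, 3 passed the adjusted p, all higher in CD4SP, and 1 of them was called. These are 12.5% and 4.17% of the list, against 17.6% and 7.92% of all tested genes. The called gene was Bag3, an HSP70 exchange factor that stress induces, at 8.90, 10.2 and 8.74 TPM in the CD4SP libraries and 2.75, 2.09 and 2.34 TPM in the CD8SP ones. Its libraries were well apart, and the difference was 1.60 ± 0.21 (SE, adjusted p = 0.00181), and it was called in all 16 refitted alternatives. The others were Fkbp5, an HSP90 co-chaperone and glucocorticoid target (0.93 ± 0.17, SE, adjusted p = 0.00702), and Cdc37l1 (0.66 ± 0.18, SE, adjusted p = 0.0322), which passed in 16 and 7 of 16 refitted alternatives. Cdc37l1 missed the threshold when CD4SP replicate 1 or 3 or CD8SP replicate 1 or 2 was left out (adjusted p = 0.0614 to 0.148). Of 9 TRiC and prefoldin partners, 1 passed, Pdcl3, higher in CD4SP (11.1%, against 17.6% of all tested genes). It did so in 11 of 16 refitted alternatives, failing without CD4SP replicate 3 or CD8SP replicate 2 or 3 (adjusted p = 0.0695 to 0.0832). This list also holds Tcp1, a subunit of TRiC itself that the name rule leaves out of the members (-0.10, adjusted p = 0.67, with overlap).

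Of 18 further ER genes, 4 besides the members passed, higher in CD4SP (22.2%, against 17.6% of all tested genes). Xbp1, the transcription factor of the unfolded protein response, was called. It measured 108, 67.4 and 132 TPM in the CD4SP libraries and 46.6, 46.9 and 49.6 TPM in the CD8SP ones, with CD4SP replicate 2 lowest of its group (1.03 ± 0.23, SE, adjusted p = 0.0154), and it passed in 15 of 16 refitted alternatives, failing without CD4SP replicate 1 (adjusted p = 0.0522). Its difference was under 2-fold without CD4SP replicate 3 (0.82) and under the 3 other scalings (0.73 to 0.88), so that it was called in 11 of 16. Herpud1, Manf and Creld2, known targets of that response, had differences of 0.63, 0.56 and 0.55 (adjusted p = 0.023, 0.0292 and 0.0321) and passed in 7, 5 and 5 of 16 refitted alternatives, and each failed when any library but CD4SP replicate 2 was left out (adjusted p = 0.0502 to 0.105). The list's median was 0.46, against 0.28 for all genes. Its other tested genes did not pass, and they lay on both sides of the median of all genes. Atf6 was at 0.44 (adjusted p = 0.184), but Atf4 was at 0.10 (adjusted p = 0.518) and Ddit3 at 0.13 (adjusted p = 0.502). Calr (0.26) and Sil1 (0.06) also lay below that median. Canx was negative (-1.23, adjusted p = 0.439) through CD8SP replicate 1 at 86.1 TPM. Of 11 mitochondrial chaperones and proteases, 1 passed, Hscb, the J protein of iron-sulfur cluster assembly, higher in CD8SP, which is 9.09% of the list against 3.23% of all tested genes (-0.56 ± 0.14, SE, adjusted p = 0.0263) and in 9 of 16 refitted alternatives, with an adjusted p of 0.0503 to 0.116 when CD4SP replicate 1 or any 1 CD8SP library was left out. The list's median was 0.01.

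Immediate-early genes, which respond to receptor signals and also to cell handling, moved with the populations. Of 13, 10 passed, all higher in CD4SP, and 6 were called, namely Fos, Junb, Egr1, Dusp1, Atf3 and Nr4a1. These are 76.9% and 46.2% of the list, against 17.6% and 7.92% of all tested genes, and they include Atf3, which passed the filter on low values only through CD4SP. Ier3 had the opposite sign, with overlap (-0.18, adjusted p = 0.689). Their summed TPM was 1288 to 1389 in CD4SP and 583 to 690 in CD8SP libraries, and Nr4a1 alone was at 36.6, 40.4 and 30.1 TPM against 7.48, 6.09 and 6.26 TPM. Their part in the differences of Dnajb1, Bag3 and the ER genes was not tested.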

How the data were processed

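RNA of 6 sorted iT cell libraries was amplified with a whole-transcriptome kit and sequenced by the authors, who aligned reads to mm10 with HISAT2 and deposited TPM estimated by StringTie in 1 table of 23420 rows. TPM scales each library to a fixed total, so an abundant class lowers the other values. Annotation, strand and sharing of reads were not given in the sources used here. TPM are not counts, so values were fitted on a log scale with limma 3.58.1 in R 4.3.3, not with the count model that the study's methods name.

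Genes that reached 1 TPM in 3 or more of the 6 libraries were fitted as log2(TPM + 1), a scale that understates changes of low genes, with population as the only term (lmFit, eBayes with trend) and Benjamini-Hochberg adjustment. The fit was tested on simulated data. Groups came from the sample titles. Members, classes and lists were chosen with earlier results of these data known, and the role classes after the members' values were seen. Named genes were the stress-inducible genes, called genes, the 10 most abundant constitutive members, the top member of each class, Cct genes, Hsf1, Hsf2, and members listed at 0. Others, and the ratios shown, were chosen after their values were seen.

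The settings changed in turn were the scaling (median-of-ratios, quantile, or without ribosomal protein genes), the pseudocount (0.1), the filter (none, or 5 TPM), the trend, library weights, a replicate block, the fold limit, each library left out, and CD8SP replicates 1 and 2 averaged, the most alike pair of libraries (r = 0.987 across genes, against 0.955 to 0.971 for other pairs of a population). Positions are from GENCODE M21 (GRCm38, the assembly of mm10). Copies were searched with blastn 2.17.0 (at least 95% identity over 200 nucleotides) and 12 of 64 members had such a match elsewhere in the genome. For Dnajb14 the matches covered at most 211 of 9477 nucleotides and lay in many other genes, so they are not copies of the gene. Exons of 27 members overlapped those of another gene. Promoter windows are RefSeq's, matched by symbol.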

Additional observations from a re-analysis of the deposited data

How the results depend on the processing

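Of the 3 called members, 1, Dnajb14, was called under each of quantile normalization, median-of-ratios rescaling and removal of ribosomal protein genes. Its values are low, and it met the filter mainly through CD4SP. Dnajc15 became a call under median-of-ratios rescaling (-1.14) and Dnajc6 with ribosomal protein genes removed (1.10), and 11 members passed without the fold limit. The constitutive members gave 1 under quantile normalization and 10 without the fold limit, and the stress-inducible members 1 without the fold limit. Called genes of the pathway lists numbered 5 under quantile normalization and 20 without the fold limit, against 8. The median difference of the members, and of the constitutive members alone, was -0.093 under median-of-ratios rescaling and -0.14 under quantile normalization, against 0.18. The median of all genes was 0.00 and -0.02 under these settings. ER members past the adjusted p numbered 2 under quantile normalization and 8 with library weights, against 4. TRiC members numbered 3 under median-of-ratios rescaling, against 0, and these class counts were added after seeing the data.

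Leaving out 1 library at a time gave 2 to 4 called members, 2 to 8 ER members past the adjusted p and a median difference of 0.10 to 0.26. Dnajc10 and Hspbap1 kept their sign in all 16 refitted alternatives and Dnajb14 in the 15 that include it, since a filter at 5 TPM removes it. Averaging CD8SP replicates 1 and 2 ended the calls by adjusted p of Dnajb1 (0.118), Hspa5 (0.0871), Hspa4l (0.123), Dnajc6 (0.148) and Hspbap1 (0.0573).

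Neither the labels nor the study says whether CD4SP and CD8SP libraries that share a replicate number came from the same mouse. The deviations of same-numbered libraries correlated at 0.05, -0.02 and 0.09. These values show little shared deviation, but with 3 libraries per population they cannot exclude a pairing by replicate number. With the number as a replicate block, 3 members were called, 3 ER members passed the adjusted p, and the calls by adjusted p of Dnajb1 (0.0838), Hspa5 (0.0603), Hspa4l (0.0586) and Dnajc6 (0.0983) ended. In the pathway lists, the block also ended those of Herpud1 (0.0538), Manf (0.0536), Creld2 (0.0654), Cdc37l1 (0.0761) and Hscb (0.0638). TPM keeps no depth, so precision rests on 3 libraries per population.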
